A study of Mus musculus with 40 samples.

Results

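Cortical interneurons, the inhibitory neurons that use GABA, are commonly told apart by the peptide or calcium-binding protein they make. The genes described here are 10 of these: Sst (somatostatin), Vip (vasoactive intestinal peptide), Npy (neuropeptide Y), Cck (cholecystokinin), Crh (corticotropin-releasing hormone), Tac1 (the precursor of substance P), Penk (proenkephalin), Pdyn (prodynorphin), Adcyap1 (the precursor of PACAP) and Pvalb (parvalbumin, a calcium buffer of fast-spiking cells). They were taken by gene symbol from the 55539 features of the count table, and all 10 passed the filter on low counts that left 15232 features for testing. Levels are given as CPM, the count as a share of the library total scaled by TMM, in 39 samples.

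The mice were 3xTg-AD females on a C57BL/6J background, aged 2 to 4 months, and RNA was taken from their left somatomotor cortex. They carry human APP and tau transgenes under the neuronal Thy1 promoter. Every group, sham included, is of this line and no wild-type group was measured, so every comparison is one within the transgenic line. Injury was a closed head injury (CHI) by weight drop under isoflurane, once daily, 1 to 5 times (1xCHI to 5xCHI), and sham mice received anesthesia without impact, with different numbers of exposures combined into 1 group. Groups held 4 Sham samples, 3 at 0.5 h, 3 at 4 h and 4 at 24 h after 1xCHI and again after 5xCHI, and 3, 2 and 4 at those times after 3xCHI, and 3 each at 24 h after 2xCHI and after 4xCHI. The total per sample ranged from 15926014 to 27859547 counts, which gave between 82 counts (Crh) and 8678 counts (Cck) for a member in 1 sample. Replicate numbers below are the sample numbers of the study.

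Neuropeptides are cut from larger precursors, stored in dense-core granules and released during strong firing, and act on G protein-coupled receptors of neighbouring cells. In the cortex somatostatin and parvalbumin mark largely separate inhibitory cells that contact dendrites and cell bodies, respectively, and Vip cells mainly inhibit other interneurons. Cck and Adcyap1 are also made by many excitatory neurons of the cortex, and Penk, Tac1 and Pdyn are made at high levels by the projection neurons of the striatum, which lies below the dissected cortex. Transcription of several of these peptide genes follows neuronal activity, through the transcription factor CREB and its DNA element (CRE), which was described on the somatostatin promoter.

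The stretches below are shown because Sst, Cck and Vip are genes on which the comparisons with time and number of injuries turn. They come from RefSeq promoter windows of GRCm38.p6, read 5′ to 3′ on the strand of the gene, and the 250 bases before the RefSeq start were searched. Capitals mark the CRE TGACGTCA or its core TGACG, on either strand. Cck (chr9:121495695-121495944, minus strand) and Vip (chr10:5638968-5639217, plus strand) are shown whole. For Sst (chr16:23890874-23890903, minus strand) 30 bases are shown. They lie before the RefSeq start of Sst but within an exon of it in the GENCODE annotation, which starts further upstream.
Sst: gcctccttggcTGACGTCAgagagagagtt
Cck: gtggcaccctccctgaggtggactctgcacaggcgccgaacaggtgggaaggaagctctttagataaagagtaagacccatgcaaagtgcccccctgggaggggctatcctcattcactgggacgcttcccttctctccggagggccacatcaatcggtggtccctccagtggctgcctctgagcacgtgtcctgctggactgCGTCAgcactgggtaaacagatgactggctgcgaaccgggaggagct
Vip: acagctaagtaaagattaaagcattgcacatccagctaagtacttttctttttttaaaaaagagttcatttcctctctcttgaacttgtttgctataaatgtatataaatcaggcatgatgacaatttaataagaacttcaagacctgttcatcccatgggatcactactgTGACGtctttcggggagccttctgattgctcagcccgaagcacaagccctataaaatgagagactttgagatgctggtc

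Windows were found for 8 of the 10 members, all but Penk and Crh. The whole element stood in the Sst window alone among these 8 members, and 1.55% of 32851 windows of the table held it. The core TGACG stood in windows of 5 members (Sst, Cck, Vip, Tac1 and Adcyap1), against 17.8% of all windows, and not in those of Npy, Pdyn and Pvalb. Every TGACGTCA also counts as a TGACG, and a match of letters is a description of the window and not of binding.

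Per kilobase of exon, Sst and Cck stood highest of the 10, at 207 ± 37.8 and 204 ± 37.1 CPM per kb (SD, n = 39). These 2 levels differed by less than their spread over samples. Npy followed at 87.6 ± 17.6, Pvalb at 62.9 ± 13.6 and Penk at 31 ± 15.7 CPM per kb. Vip stood at 17.2 ± 1.89 and Pdyn at 8.68 ± 1.87 CPM per kb. The lowest were Crh at 5.13 ± 1.31, Adcyap1 at 4.97 ± 1.22 and Tac1 at 3.27 ± 1.26 CPM per kb, of which Crh and Adcyap1 were closer than their spread. In bulk tissue, fewer cells of a type and less RNA per cell cannot be told apart.

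The spread between samples of 1 group was very unequal among these genes. The biological coefficient of variation was 0.0956 for Vip, lower than the 0.141 of the median gene tested. It was 0.158 for Sst, 0.157 for Cck, 0.189 for Crh, 0.194 for Npy, 0.202 for Pdyn, 0.206 for Pvalb and 0.23 for Adcyap1. Tac1 at 0.314 and Penk at 0.355 stood at percentiles 92.7 and 95.3 of all genes tested. From the lowest to the highest sample, Penk spanned 5.11-fold and Tac1 4.91-fold, whereas Vip spanned 1.71-fold.

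**Figure D1:**
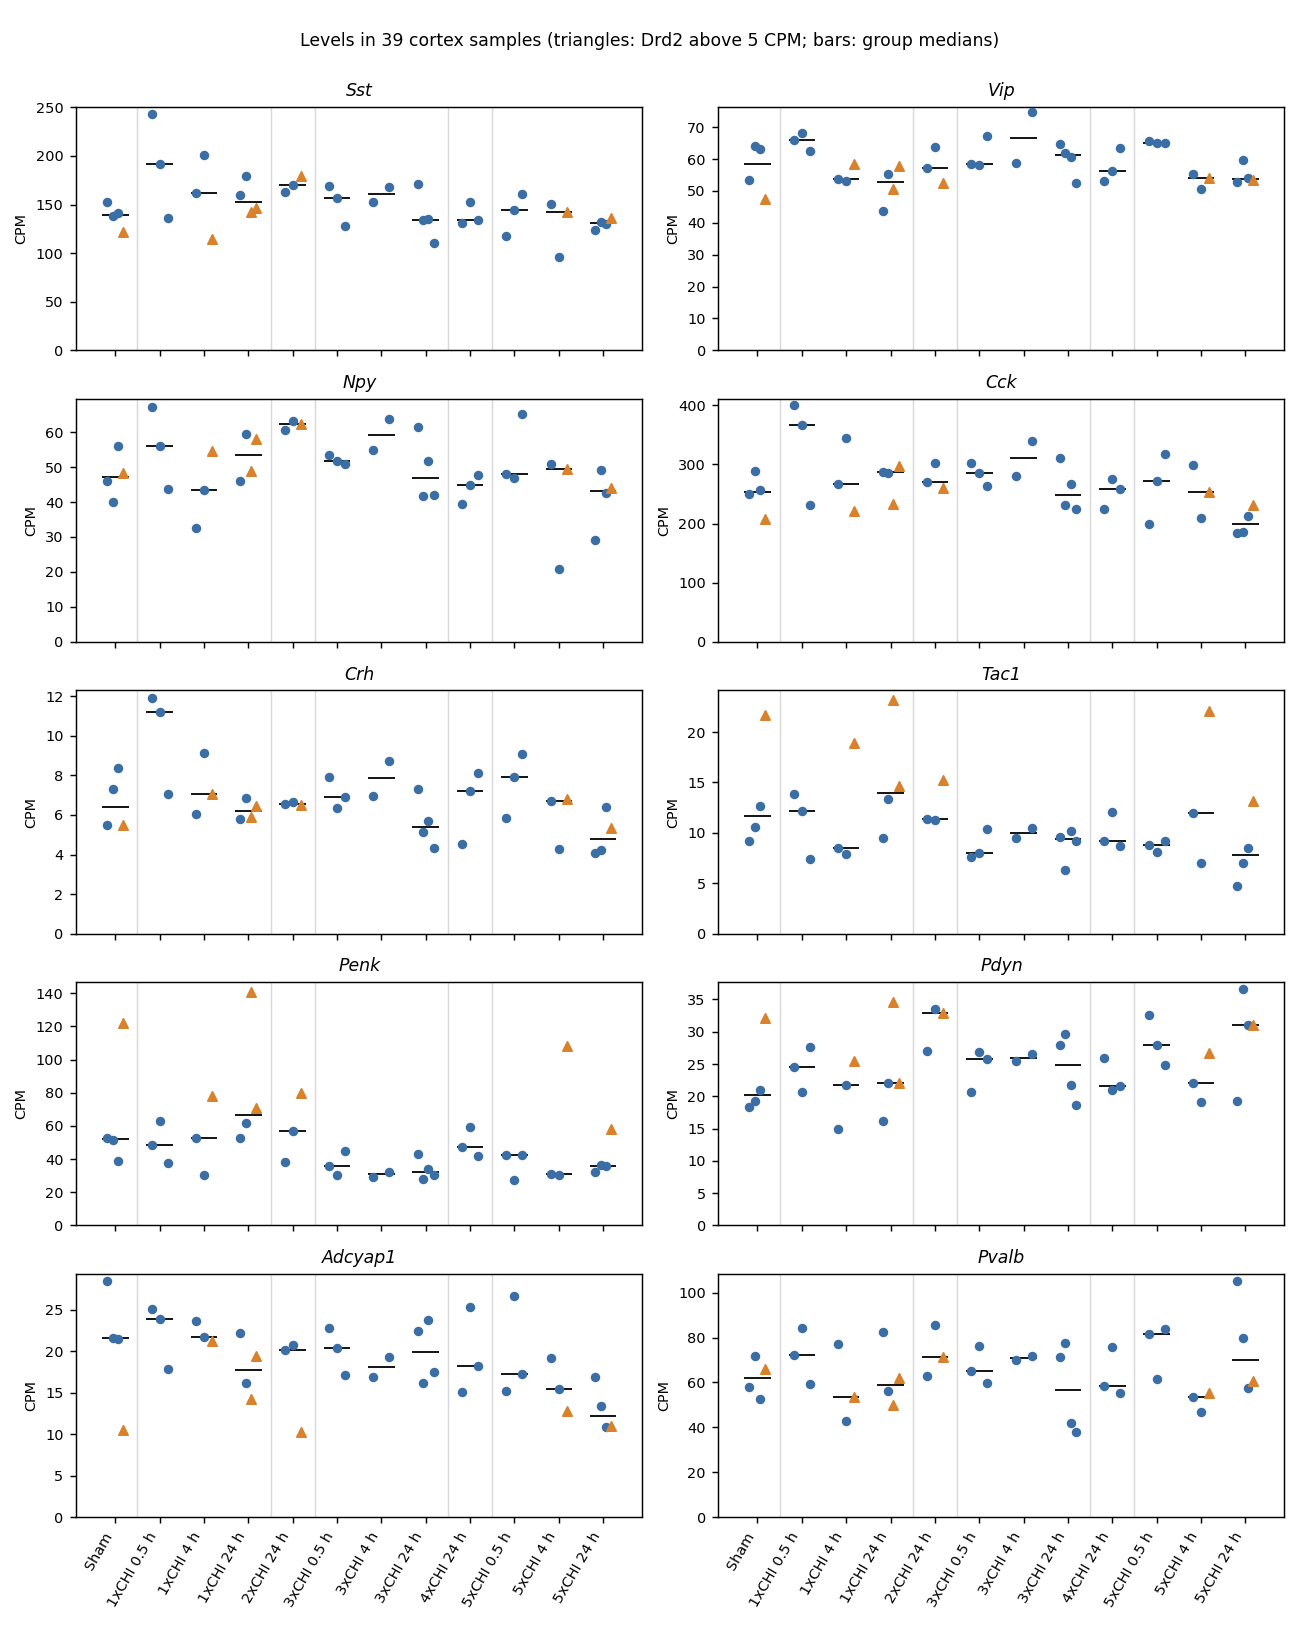
Level of each gene in CPM (vertical axes, from 0) in the 12 groups (horizontal axis), 1 point per sample, with bars at group medians and triangles for the 7 libraries with Drd2 above 5 CPM. Penk ran from 27.6 to 141 CPM and its highest points are triangles, whereas Vip stayed between 43.8 and 74.8 CPM.

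Before the injury comparisons, the libraries were examined for tissue other than cortex, because Penk, Tac1 and Pdyn are striatal genes. The markers of striatal projection neurons, a list of 12 genes of which 9 passed the filter, summed to 127 to 309 CPM in 32 libraries and to 345 to 908 CPM in the other 7. These 7 were the ones with Drd2, the dopamine receptor of the enkephalin neurons of the striatum, above 5 CPM. Drd2 was 6.42 to 32.5 CPM in them and 0.381 to 3.56 CPM elsewhere. They were Sham replicate 39, 1xCHI 4 h replicate 36, 1xCHI 24 h replicates 26 and 28, 2xCHI replicate 29, 5xCHI 4 h replicate 32 and 5xCHI 24 h replicate 34, and no 4xCHI library and none of the 3xCHI libraries used was among them. The 3xCHI 4 h replicate 30, which was left out of the fits, had Drd2 at 11.9 CPM and Penk at 80.3 CPM (scaled with all 40 libraries).

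Penk was 57.9 to 141 CPM in these 7 libraries (median 79.6) and 27.6 to 62.9 CPM in the other 32 (median 38.7). Tac1 was 13.2 to 23.2 CPM (median 18.9) against 4.73 to 13.9 CPM (median 9.2). For both genes the ranges overlapped only narrowly. Pdyn had medians of 31.1 against 23.3 CPM and Adcyap1 of 12.8 against 19.7 CPM, with wide overlap, so Adcyap1 lay at the lower end where the striatal markers were high. The medians were 233 against 271 CPM for Cck, 53.3 against 59.2 CPM for Vip and 60.6 against 67.6 CPM for Pvalb, lower in the 7 with ranges that overlap. They were 142 against 152 CPM for Sst, 49.5 against 48.6 CPM for Npy and 6.47 against 6.79 CPM for Crh.

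**Figure D2:**
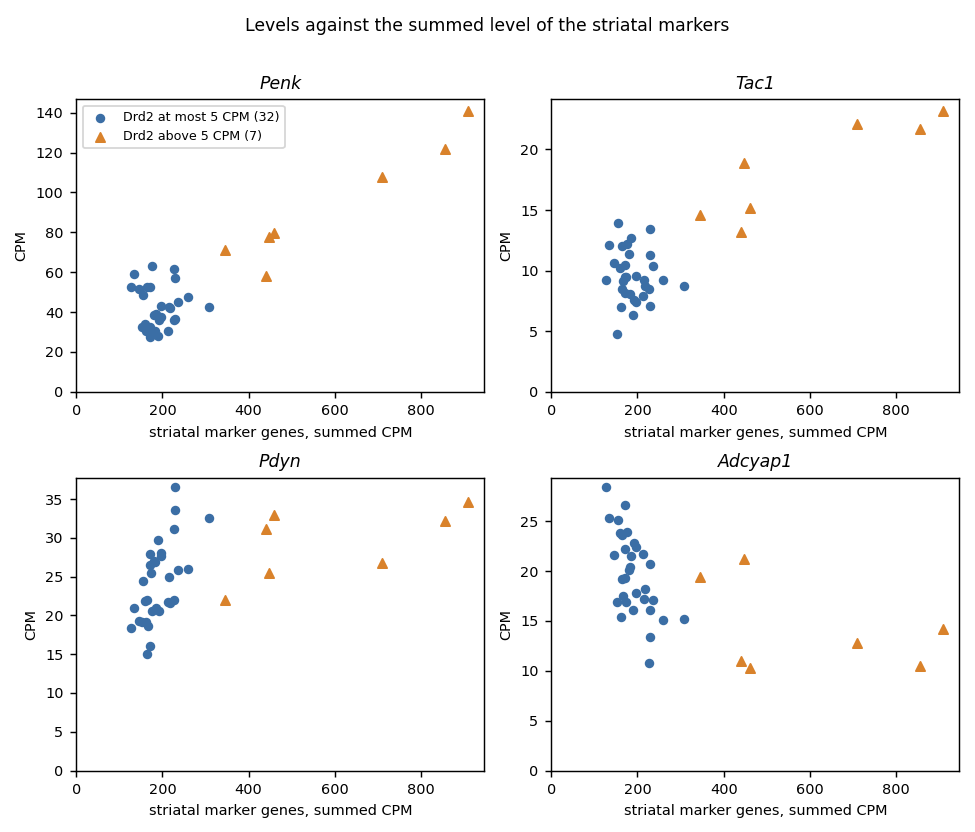
Level of Penk, Tac1, Pdyn and Adcyap1 in CPM (vertical axes) against the summed CPM of the striatal markers (horizontal axes), 1 point per sample, triangles for the 7 libraries with Drd2 above 5 CPM. Penk reaches 141 CPM at a marker sum of 908 CPM, and among the other 32 libraries it lies between 27.6 and 62.9 CPM.

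Because the samples fell into these sets, relations with the striatal list (its mean z-score) were taken within each. In the 7 libraries Penk had Pearson's r = 0.904 (exact permutation p = 0.00734) and Spearman's rho = 0.964 (exact p = 0.00278), and Tac1 r = 0.864 (exact p = 0.03) and rho = 0.893 (exact p = 0.0123). Vip had r = -0.774 (exact p = 0.0407) and rho = -0.714 (exact p = 0.0881) there, and these exact p-values are not adjusted over the 10 members. In the 32 libraries r was 0.33 for Penk (permutation p = 0.0649, adjusted over 10 members 0.216) and 0.107 for Tac1 (adjusted p = 0.758). Adcyap1 had r = -0.472 there (adjusted permutation p = 0.0606) and rho = -0.463 (adjusted p = 0.044), and Pdyn r = 0.439 (adjusted p = 0.0606) and rho = 0.46 (adjusted p = 0.044). Without the 2 samples farthest from the median marker level these were -0.406 and 0.419. By Pearson's r, 0 of 10 relations passed in the 32 libraries, with 2 at an unadjusted p under 0.05, Pdyn (0.0121) and Adcyap1 (0.00653).

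The first question of the study is what injury does against sham, with time points pooled within each number of injuries. None of the 10 genes passed the test after any number of injuries. By edgeR's quasi-likelihood test 0 of 50 tests passed an adjusted p of 0.05, with 4 at an unadjusted p under 0.05, and DESeq2 also called 0. Over all genes tested edgeR called 0% in each of these 5 comparisons, which share the 4 sham samples, and DESeq2 called 30 genes after 1xCHI, 10 after 5xCHI and 0 in the other 3. The shares of all genes at an unadjusted p under 0.05 were 17%, 4.44%, 3.87%, 1.62% and 11.5% for 1 to 5 injuries in order, where 1, 1, 2, 0 and 0 members stood. Sst after 1xCHI was 114 to 243 CPM (median 161, n = 10) against 153, 138, 141 and 122 CPM in Sham, a log2 fold change of 0.28 ± 0.13 (SE, adjusted p = 0.289). Its 95% interval ran from 0.0063 to 0.55.

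Penk, the precursor of the enkephalins, had the largest fitted difference from sham among these 50 with all 4 sham samples used. It was 28 to 44.9 CPM (median 32.3, n = 9) after 3xCHI and 52.8, 51.5, 38.9 and 122 CPM in Sham, the last being the sham library with striatal markers. The groups overlapped between 38.9 and 44.9 CPM. The log2 fold change was -0.95 ± 0.30 (adjusted p = 0.908, unadjusted 0.00347), and -0.77 with the left-out replicate 30 included (adjusted p = 0.947). Without Sham replicate 39 it was -0.48 (unadjusted p = 0.141), and that of Pdyn after 2xCHI was then 0.68 (adjusted p = 0.999). Tac1 had -0.58 ± 0.28 in the same comparison (adjusted p = 0.908), and -0.26 without that sham library. After 2xCHI Pdyn, the precursor of the dynorphins, was 27, 33.6 and 32.9 CPM against 18.4, 19.3, 21 and 32.2 CPM in Sham (log2 fold change 0.46 ± 0.22, adjusted p = 0.946).

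The second question is what each injury adds to the state just before it, so 1xCHI was compared with Sham, 3xCHI with 2xCHI at 24 h and 5xCHI with 4xCHI at 24 h, at each time. No member passed in any of these 9 comparisons (0 of 90 tests by edgeR with 4 at an unadjusted p under 0.05, and 0 by DESeq2). Of all genes edgeR called 0% in each, and DESeq2 called 28 at 0.5 h and 11 at 4 h after 1xCHI, 4 at 0.5 h after 3xCHI, 1 at 0.5 h after 5xCHI and 0 in the other 5. At an unadjusted p under 0.05 stood 19.4%, 10.5% and 5.85% of all genes at 0.5 h, 4 h and 24 h after 1xCHI (3, 0 and 0 members). After 3xCHI they were 1.86%, 1.97% and 4.51% (0 members each) and after 5xCHI 6.24%, 5.23% and 6.53% (0, 0 and 1). The smallest adjusted p-values came 0.5 h after the first injury. There Crh was 11.9 and 11.2 CPM in replicates 13 and 14 and 7.08 CPM in replicate 27, against 5.5, 7.33, 8.39 and 5.48 CPM in Sham. Cck was 400, 366 and 231 CPM in the same order, against 250, 288, 257 and 207 CPM in Sham. Sst was 243, 192 and 136 CPM.

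In all 3 genes replicates 13 and 14 lay above every sham sample and replicate 27 lay among them. The log2 fold changes were 0.59 ± 0.22 for Crh (adjusted p = 0.182), 0.41 ± 0.17 for Cck (adjusted p = 0.199) and 0.46 ± 0.17 for Sst (adjusted p = 0.182). Without replicate 27 all 3 were called, at 0.80 (adjusted p = 0.0179), 0.62 (adjusted p = 0.0148) and 0.67 (adjusted p = 0.013), and 23.6% of all genes were called with them. The 2 libraries were thereby assumed to vary like those of the other groups. Replicates 13 and 14 also lay far along the first principal component of all genes, at 45.9 and 31.5, where replicate 27 lay at -19.2 and the sham samples at -28.3 to -4, and the part of that component in the result was not tested.

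Later after the first injury the same 3 genes lay nearer to sham. At 4 h Crh was 6.07, 9.15 and 7.08 CPM and at 24 h it was 5.78, 6.88, 5.91 and 6.47 CPM. Cck was 266, 344 and 222 CPM at 4 h, overlapping Sham. Whether the change at one time differed between 1xCHI, 3xCHI and 5xCHI, each against the group before it, was tested as an interaction. For Sst at 0.5 h the change after 3xCHI minus that after 1xCHI was -0.63 ± 0.25 in log2 units (adjusted p = 0.757), and no interaction of a member passed.

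**Figure D3:**
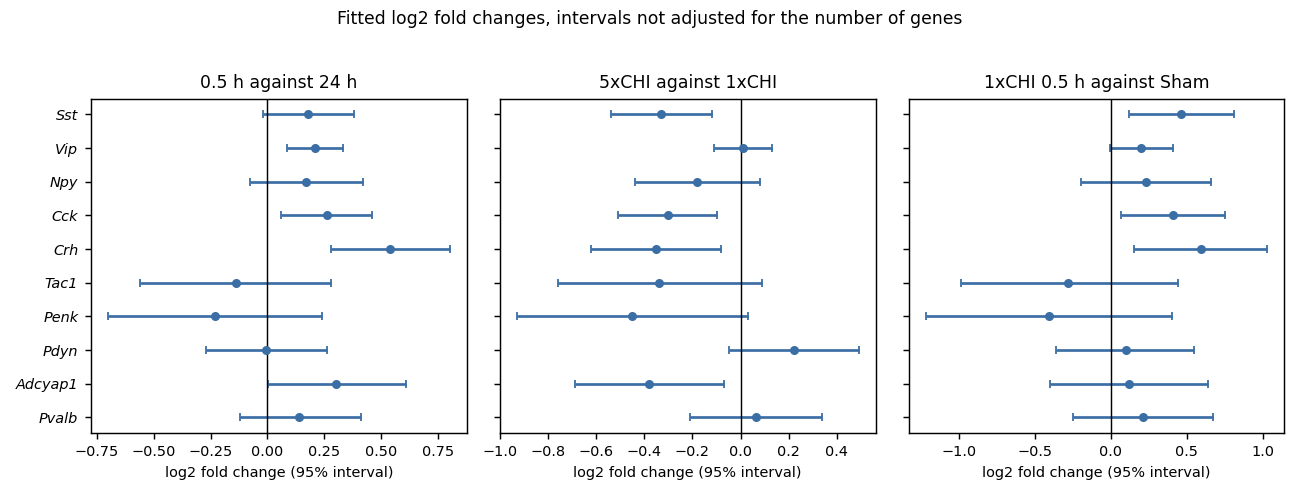
Fitted log2 fold changes (horizontal axes) with unadjusted 95% intervals for the 10 genes (vertical axis), for 0.5 h against 24 h, 5xCHI against 1xCHI and 1xCHI 0.5 h against Sham. Crh sits at 0.54 in the first panel and Sst, Cck and Crh at -0.33, -0.30 and -0.35 in the second.

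Time after injury was tested without sham, as the mean of 1xCHI, 3xCHI and 5xCHI. Crh, a stress peptide that in the cortex is made by a subset of Vip and Sst interneurons, had the smallest adjusted p of all member tests by edgeR, at 0.5 h against 24 h, and did not pass. It was 11.9, 11.2 and 7.08 CPM after 1xCHI, 7.93, 6.36 and 6.93 CPM after 3xCHI and 5.83, 7.94 and 9.1 CPM after 5xCHI at 0.5 h. At 24 h it was 4.09 to 7.33 CPM (median 5.73, n = 12), and 5 of the 9 samples at 0.5 h lay above all 12. The log2 fold change was 0.54 ± 0.13 (95% interval 0.28 to 0.80), with an adjusted p of 0.0752 by edgeR and 0.0141 by DESeq2.

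The edgeR test of 0.5 h against 24 h called 0 members, with 4 at an unadjusted p under 0.05 (10.4% of all genes), and 0.177% of all genes. DESeq2 called 1 member, Crh, and 0.341% of all genes. The difference in mean log2 CPM of Crh was 0.51 among samples numbered 1 to 18 (6 against 5) and 0.42 among those numbered 19 to 40 (3 against 7), the same direction in both. Without the 7 libraries with striatal markers it was 0.55 (adjusted p = 0.636, with fewer samples). Leaving out 1 library called Crh in 4 cases, 1xCHI 0.5 h replicate 27 (0.61, adjusted p = 0.0141, with 1.26% of all genes called), 3xCHI 24 h replicate 2 (0.59, adjusted p = 0.049), 5xCHI 0.5 h replicate 7 (0.60, adjusted p = 0.0464) and 4xCHI 24 h replicate 24 (0.54, adjusted p = 0.0492). The 4xCHI library is on neither side of this comparison and enters only through the fit shared by all groups. A share of all genes called is given for replicate 27 only.

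Vip was the least variable member and had the second smallest p of the 10 for this comparison. At 0.5 h it was 66, 68.2 and 62.6 CPM after 1xCHI, 58.4, 58.1 and 67.3 CPM after 3xCHI and 65.8, 65.1 and 65.1 CPM after 5xCHI. At 24 h it was 43.8 to 64.7 CPM (median 54.7, n = 12). After 1xCHI and after 5xCHI the samples of these times did not overlap, and after 3xCHI they did. The log2 fold change was 0.21 ± 0.059 (95% interval 0.085 to 0.33, adjusted p = 0.293), and it was 0.17 and 0.23 within the samples numbered 1 to 18 and 19 to 40.

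For Cck the 0.5 h samples were 199 to 400 CPM (median 285, n = 9) against 184 to 311 CPM (median 233, n = 12) at 24 h, a log2 fold change of 0.26 ± 0.10 (adjusted p = 0.439). Adcyap1, whose peptide PACAP raises cyclic AMP, had 0.30 ± 0.15 (adjusted p = 0.475). The other 6 members had adjusted p-values of at least 0.503. At 4 h against 24 h and at 4 h against 0.5 h 0 members were called, with 1 at an unadjusted p under 0.05 in each (3.45% and 4.54% of all genes) and 0 by DESeq2. Of all genes edgeR called 0.00657% and 0.0131%, and DESeq2 1 and 24 genes. Crh had 0.33 ± 0.13 at 4 h against 24 h (adjusted p = 0.993), and Vip -0.14 ± 0.066 at 4 h against 0.5 h (adjusted p = 0.987).

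Genes that firing neurons switch on within minutes are given for comparison. Of a list of 11 activity-induced genes 7 rose at 0.5 h against 24 h and 0 fell. Their median log2 fold change was 1.53, where that of all genes was -0.0097. Fosb, an AP-1 subunit, was 12.9 to 228 CPM (median 60.8) at 0.5 h and 7.77 to 28.1 CPM (median 9.82) at 24 h (log2 fold change 2.97 ± 0.41, adjusted p = 0.000441). Npas4 (2.82 ± 0.45), Fos (2.50 ± 0.43), Ptgs2 (1.70 ± 0.27) and Nr4a1 (1.53 ± 0.29) also passed, with adjusted p-values of 0.00251, 0.00582, 0.00251 and 0.0121. At 0.5 h after 1xCHI the summed list was 751 to 1800 CPM, within the 724 to 1850 CPM of Sham. It was 966 to 3410 CPM after 3xCHI and 951 to 2520 CPM after 5xCHI at that time. Over the time points Npas4 reached 39.7, 558 and 321 CPM after 1xCHI, 3xCHI and 5xCHI, against 38.9 CPM in Sham. Fosb reached 115, 228 and 207 CPM, against 22.1 CPM in Sham.

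The number of injuries was tested at matched times, without sham. Sst, Cck and Crh were lower on average after 5xCHI than after 1xCHI, and by edgeR none passed. Sst was 114 to 243 CPM (median 161) after 1xCHI, 110 to 171 CPM (median 153) after 3xCHI and 96.1 to 161 CPM (median 134) after 5xCHI (n = 10, 9 and 10). The fitted log2 fold change of 5xCHI against 1xCHI was -0.33 ± 0.10 (95% interval -0.54 to -0.12), with an adjusted p of 0.0861 by edgeR and 0.042 by DESeq2. Cck was 222 to 400 CPM (median 287) after 1xCHI and 184 to 318 CPM (median 222) after 5xCHI (log2 fold change -0.30 ± 0.10, adjusted p = 0.112). Crh had -0.35 ± 0.13 (adjusted p = 0.167). The groups overlapped in all 3 genes.

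In this comparison edgeR called 0 members, with 4 at an unadjusted p under 0.05 (16.2% of all genes), and 1.08% of all genes, while DESeq2 called 1 member, Sst, and 3.5% of all genes. The direction was not the same in the lower and the higher sample numbers, each with as many samples of one group as of the other. Among samples numbered 1 to 18 (6 against 6) the difference of mean log2 CPM was -0.57 for Sst, -0.54 for Cck and -0.60 for Crh. In that set the 5xCHI samples were numbered 7 to 12 and the 1xCHI samples 13 to 18. Number of injuries and sample order therefore cannot be told apart there. Among samples numbered 19 to 40 (4 against 4) the difference was 0.14, 0.13 and 0.075, so the sign turned in each gene. With these sets of sample numbers as a covariate the fit gave -0.31 for Sst (adjusted p = 0.0637) and -0.29 for Cck (adjusted p = 0.0969). That covariate does not separate sample order within a set.

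In the same samples the first principal component separated the 1xCHI libraries by number, with 17.1 to 45.9 in replicates 13 to 18 and -32 to -7.11 in replicates 26, 27, 28 and 36. The sign of this component is arbitrary and was set so that its correlation with Sst was positive. Signs of the other genes are therefore relative to Sst. Over all 39 samples Sst was correlated with this component (r = 0.507, rho = 0.525, permutation p = 0.00122 and 0.00069, adjusted over 10 members 0.0061 and 0.00345). Its r was 0.539 without the 2 farthest samples and 0.309 and 0.597 within samples numbered 1 to 18 and 19 to 40. For Cck r was 0.412 and rho 0.484 (adjusted permutation p = 0.0306 and 0.00647), with 0.542 without the 2 farthest and 0.172 and 0.715 within these sets. For Crh r was 0.24 and rho 0.219 (adjusted permutation p = 0.204 and 0.258), and for Pvalb, whose fitted difference between 5xCHI and 1xCHI was 0.066, r was 0.499 and rho 0.541 (adjusted permutation p = 0.0061 and 0.00345). Tac1 had the negative relation among the 4 members that passed by Pearson's r, at r = -0.396 and rho = -0.341 (adjusted permutation p = 0.0306 and 0.0848), with -0.382 without the 2 farthest samples, -0.151 and -0.183 by sample number and -0.158 in the 32 libraries with low striatal markers. The share of all genes that would pass with that component was not computed. The part of that component in the difference between 5xCHI and 1xCHI was not tested.

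**Figure D4:**
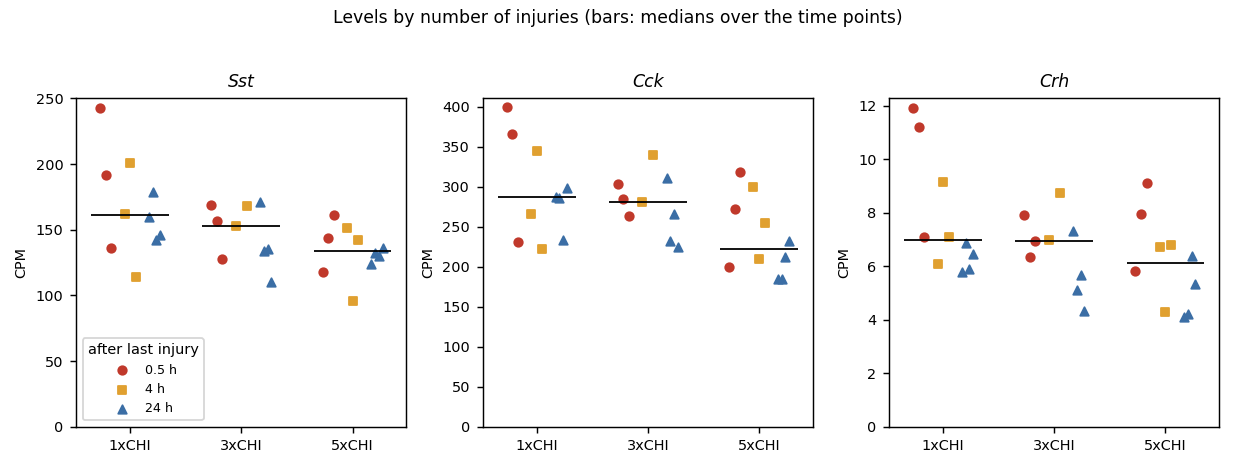
Sst, Cck and Crh in CPM (vertical axes, from 0) after 1, 3 and 5 injuries (horizontal axes), with a colour and shape for the hours after the last injury and bars at the median over time points. The median of Sst is 161, 153 and 134 CPM, and the highest sample of each gene is one at 0.5 h after 1xCHI.

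Adcyap1 had the same sign in both sets of sample numbers. It was 14.2 to 25.1 CPM (median 21.5) after 1xCHI and 10.8 to 26.6 CPM (median 15.3) after 5xCHI, and at 24 h after 5xCHI it was 16.9, 13.4, 10.8 and 11 CPM against 22.2, 16.1, 14.2 and 19.4 CPM after 1xCHI. The log2 fold change was -0.38 ± 0.15 (adjusted p = 0.203), with -0.33 among samples numbered 1 to 18 and -0.46 among the rest. Against 4xCHI, at 24 h, it was -0.58 ± 0.26 (adjusted p = 0.697). Adcyap1 was also low where the striatal markers were high, and 2 of the 10 5xCHI and 3 of the 10 1xCHI libraries were among those 7.

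Of the 10 genes Penk had the largest fitted difference between 3xCHI and 1xCHI. It was 48.7, 62.9 and 37.7 CPM at 0.5 h, 52.4, 30.5 and 77.9 CPM at 4 h and 52.6, 61.7, 141 and 70.9 CPM at 24 h after 1xCHI, and 28 to 44.9 CPM after 3xCHI. At 24 h the lowest 1xCHI sample lay above the highest 3xCHI sample, 42.9 CPM. The log2 fold change was -0.83 ± 0.25 (adjusted p = 0.294), and -0.63 with replicate 30 included (adjusted p = 0.336). The striatal markers had a median of -1.26 over their 9 tested genes, of which 0 were called, with 3 at an unadjusted p under 0.05. By edgeR 0 members were called here, with 2 at an unadjusted p under 0.05 (9.3% of all genes), and edgeR called 0% of all genes. DESeq2 gave an adjusted p for 4 members only, none of which passed, and none for Penk (unadjusted 0.00111) or the other 5. Over all genes it gave an adjusted p for 4009, of which it called 36.

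Without the 7 libraries that carry striatal markers, Penk remained lower at -0.55 after 3xCHI (adjusted p = 0.0421) and at -0.53 after 5xCHI (adjusted p = 0.0301) against 1xCHI. Sst at -0.47 (adjusted p = 0.0206) and Cck at -0.40 (adjusted p = 0.0427) were then also called after 5xCHI. Those comparisons called 2.39% and 6.06% of all genes, and 4 of 20 member tests. Removing these libraries left 7 1xCHI samples, of which 6 were numbered 13 to 18, the ones far along the first principal component. Leaving out single libraries likewise brought Sst and Cck under the threshold: replicate 27 (1xCHI 0.5 h), 31 (5xCHI 0.5 h) and 36 (1xCHI 4 h), with adjusted p-values of 0.0231, 0.0479 and 0.022 for Sst and 0.0249, 0.0445 and 0.044 for Cck. Their log2 fold changes were then -0.40, -0.37 and -0.40 for Sst and -0.38, -0.36 and -0.36 for Cck, with 4.22%, 3.48% and 3.84% of all genes called.

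At 24 h every number of injuries was sampled, so a trend from Sham to 5xCHI was fitted. The Sham samples at its start are labelled 0 h, and the study combined sham mice over time points. Tac1 and Penk had the smallest p-values, with changes of -0.17 ± 0.057 and -0.19 ± 0.064 log2 units per injury (adjusted p = 0.755 for both). Tac1 was 9.2, 10.6, 12.7 and 21.7 CPM in Sham and 4.73, 7.04, 8.49 and 13.2 CPM after 5xCHI. In both groups the highest value belongs to a library with striatal markers, and without Sham replicate 39 the trends of Tac1 and Penk were both -0.12. By edgeR the smallest p-values then belonged to Adcyap1 (-0.11, unadjusted p = 0.00903, adjusted 0.839) and Cck (-0.069, unadjusted p = 0.0212, adjusted 0.872). By edgeR 0 members passed in the trend, with 3 at an unadjusted p under 0.05 (5.83% of all genes). In the test of any difference among the injured groups at 24 h 0 passed, with 1 at an unadjusted p under 0.05 (4.82% of all genes), and edgeR called 0% of all genes in each. DESeq2 called 0 members in both, and 1 and 4 of all genes.

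Over the 12 groups the F-test called 0 members by edgeR, with Crh (0.0132), Vip (0.0259) and Penk (0.0376) at an unadjusted p under 0.05 (7.03% of all genes), and 0 by DESeq2. Of all genes edgeR called 0.0131% and DESeq2 202. Npy and Pvalb gave no comparison near the threshold. Npy was 20.9 to 67.2 CPM over the samples (median 49.1), with the lowest value in 5xCHI 4 h replicate 10 and 60.5, 63.2 and 62.3 CPM after 2xCHI. Pvalb was 37.8 to 105 CPM (median 62.7), with 105 CPM in 5xCHI 24 h replicate 11 and 57.7 to 79.6 CPM in the other 3 of that group. At 4 h against 0.5 h its log2 fold change was -0.26 ± 0.15 (adjusted p = 0.987). For Pvalb the 95% interval of 5xCHI against 1xCHI was -0.21 to 0.34, and for Npy -0.44 to 0.079.

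The neighbours of these genes in the pathway were taken from lists chosen with earlier results of these data known. In the comparison of 5xCHI with 1xCHI 2 of 9 other cortical peptides tested fell and 0 rose, and their median log2 fold change was -0.39, against 0.0029 for all genes. Cort (cortistatin), a relative of somatostatin found in the same interneuron class, was 2.83 to 6.84 CPM (median 4.09) after 1xCHI and 0.781 to 3.27 CPM (median 2.42) after 5xCHI. Its log2 fold change was -0.94 ± 0.19 (adjusted p = 0.0225), and it was -1.29 and -0.51 within samples numbered 1 to 18 and 19 to 40. Grp (gastrin-releasing peptide) had -0.89 ± 0.20 (adjusted p = 0.0282), with -1.16 and -0.30 in these sets.

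Of 14 peptide processing and granule genes 1 fell and 0 rose. This was Pcsk1, the convertase that cuts many of these precursors, at 28.5 to 62.2 CPM (median 43.6) after 1xCHI and 14.5 to 39.7 CPM (median 31.4) after 5xCHI (log2 fold change -0.52 ± 0.13, adjusted p = 0.0379). It was -0.68 and -0.43 within these sets, and the median over the 14 genes was -0.0077. Of 14 tested peptide receptors 1 fell, the neuropeptide Y receptor gene Npy5r (-0.38 ± 0.10, adjusted p = 0.0433).

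Markers of other cells moved in this comparison as well. Of 6 microglial genes, none of them at 0 in any sample, 2 rose, Csf1r (0.56 ± 0.13, adjusted p = 0.0286) and Cx3cr1 (0.41 ± 0.10, adjusted p = 0.0337). Their summed level was 164 to 240 CPM in the 1xCHI samples and 197 to 475 CPM in the 5xCHI samples. Ttr, a choroid plexus gene, was 4.05 to 39.3 CPM (median 19.4) after 1xCHI and 3.31 to 2410 CPM (median 22.4) after 5xCHI (log2 fold change 4.14 ± 1.02, adjusted p = 0.0379), and 2 of its list of 6 genes passed the filter. Of 11 genes of cortical excitatory neurons 0 were called, with a median of -0.023 and 2 at an unadjusted p under 0.05, both lower. Their part in the values of the peptide genes was not tested.

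Correlations among the members were computed over the 39 samples, of which those of a group share its condition. Of 45 pairs 16 passed an adjusted permutation p of 0.05 for Pearson's r, 15 of them positive. The share of all gene pairs that would pass was not computed, so the count is not a trait of these genes. The closest pairs were Tac1 with Penk and the 3 pairs of Sst, Cck and Crh. Sst and Cck had r = 0.837 and rho = 0.846 (permutation p = 1e-05 for each, the smallest that 100000 permutations can give, adjusted over 45 pairs 0.000112 and 0.00015), and r = 0.811 without the 2 samples farthest from the median of Sst. Within samples numbered 1 to 18 and 19 to 40 r was 0.876 and 0.688, and in the 32 libraries with low striatal markers 0.852. Cck and Crh had r = 0.82 and rho = 0.722 (adjusted permutation p = 0.000112 and 0.00015), with 0.761 without the 2 farthest samples, 0.923 and 0.579 by sample number and 0.844 in the 32 libraries.

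Crh was also related to Vip (r = 0.568, rho = 0.619, adjusted permutation p = 0.0007 and 0.000562), with 0.57 without the 2 farthest samples, 0.552 and 0.603 by sample number and 0.566 in the 32 libraries. Tac1 and Penk were related within each set of libraries, with r = 0.544 and rho = 0.567 in the 32 (adjusted permutation p = 0.00419 and 0.00412) and r = 0.933 and rho = 0.929 in the 7 with striatal markers (exact permutation p = 0.00516 and 0.00675). Pdyn and Adcyap1 were the negative pair (r = -0.583, rho = -0.545, adjusted permutation p = 0.000643 and 0.00275). It was -0.565 without the 2 farthest samples, -0.402 and -0.67 by sample number and -0.455 in the 32 libraries. Pvalb passed with none of the other 9 genes.

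**Figure D5:**
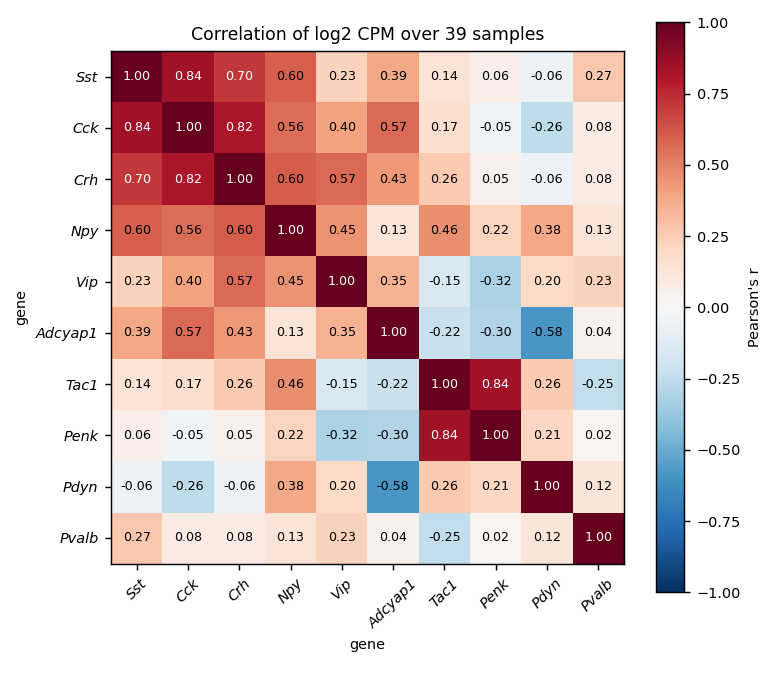
Pearson's r of log2 CPM over 39 samples for each pair of the 10 genes (rows and columns), with red for positive and blue for negative values. Sst, Cck and Crh form a block at 0.705 to 0.837 and Tac1 with Penk stands at 0.838. Genes outside the 10 are not shown.

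Over the 39 samples the genes most like each member, by r of log2 CPM among the genes tested, were as follows. For Penk they were Gpr6 (0.884), Adora2a (0.846) and Syndig1l (0.845), all 3 from the striatal list, and for Tac1 they were Penk (0.838), Actn2 (0.825) and Gng7 (0.787). For Sst they were Bex3 (0.897), Map1lc3a (0.888) and Fxyd7 (0.887), and for Cck Acot7 (0.88), Kcnmb4 (0.865) and Nme1 (0.855). Crh was most like Cck (0.82), Dusp14 (0.803) and Vti1b (0.764).

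Pvalb was most like Ldhb, a lactate dehydrogenase subunit (0.902), then Hnrnpm (0.813) and March2 (0.81). Npy was most like Cpne9 (0.801), Sept5 (0.799) and Nrgn (0.793), and Pdyn most like Rcan2 (0.812), Ptk2b (0.769) and Lzts3 (0.769). Adcyap1 was most like Ldb2 (0.78), Doc2a (0.757) and Lmo4 (0.71). Vip had the lowest of these values, with Anxa11 (0.621), AC133601.1 (0.605) and Dnajc21 (0.603).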

How the data were processed

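Total RNA of 40 samples was sequenced by a company, and what the authors deposited are estimated counts of each gene, neither normalized nor filtered. The build in the submitters' processing notes is mm10, the gene identifiers match GENCODE M21, and the aligner and counter version are not given in the sources used here. The counts were rounded, and no value of a member changed by this. Replicate 30 (3xCHI 4 h) was left out as in the study. A feature was kept when at most 4 samples had under 10 counts. edgeR 4.0.16 (TMM, quasi-likelihood test, R 4.3.3) was fitted to all 15232 features with Benjamini-Hochberg adjustment, over 6 groups for pooled times and 12 otherwise. DESeq2 1.42.0 was the alternative, with others in the closing section. Fold changes are log2 with their SE, and log2 CPM used a prior count of 1. Correlations used 100000 two-sided permutations. Named genes are all members, the called genes of each list, and the 3 most like each member. The members, the lists and the division between sample numbers 18 and 19 were chosen with earlier results of these data known, and the removal of 7 libraries, the interactions and the first principal component (30.4% of the variance) after seeing the data. P-values measure the spread between these samples, whose 46 pairs within groups differed by more than counting noise. The tests were tested on simulated data. Some results of the gene lists are not reported here.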

Additional observations from a re-analysis of the deposited data

Results flagged for a closer look

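Within groups of 4 to 10 samples, 70 sets of values of the 10 genes were searched for a sample far from the others (Dixon's test), where chance alone marks about 1 in 20, and 6 were marked. Penk was 122 CPM in Sham replicate 39, with the other 3 at 38.9 to 52.8 CPM, and 57.9 CPM in 5xCHI 24 h replicate 34, with the other 3 at 32.3 to 36.3 CPM. With times pooled, Penk was 141 CPM in 1xCHI replicate 26, against 30.5 to 77.9 CPM, and 108 CPM in 5xCHI replicate 32, against 27.6 to 57.9 CPM. Tac1 was 22.1 CPM in that same 5xCHI replicate 32, against 4.73 to 13.2 CPM. These 4 libraries are among the 7 with Drd2 above 5 CPM. Adcyap1 was 26.6 CPM in 5xCHI 0.5 h replicate 8, against 10.8 to 19.2 CPM in the other 9 samples.

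The library that the study left out, 3xCHI 4 h replicate 30, lay above the highest sham sample for Pdyn (33.1 against 32.1 CPM) and Pvalb (76.4 against 71.1 CPM), scaled with all 40 libraries. In it Drd2 was 11.9 CPM and Penk 80.3 CPM, where the other samples of its group had Penk at 29 and 32.3 CPM.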

How the results depend on the processing

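With 15232 features and groups of 2 to 4, the count of members called was 0 in all 6 families of tests. It stayed 0 with library size scaling, without the filter on low counts, with all 40 samples and with the sample number, or numbers 1 to 18 against 19 to 40, as a covariate. DESeq2 gave 1 call between time points (Crh) and 1 between numbers of injuries (Sst), and no adjusted p for 6 members between 3xCHI and 1xCHI. Leaving out the 7 libraries with Drd2 above 5 CPM gave 4 calls between numbers of injuries. Without 1 library at a time (39 settings), calls ranged from 0 to 3 after each injury, 0 to 1 between time points and 0 to 2 between numbers of injuries, and were 0 throughout in the other 3 families. Each member was then followed in 1 comparison, the one with its smallest unadjusted p. Of 69 such values under other settings 64 stayed on the same side of the threshold, 5 crossed to called and 0 turned in sign, and of 390 with 1 library left out 380, 10 and 0. In other comparisons signs did turn. At 0.5 h after 1xCHI against Sham, Penk went from -0.41 to 0.068 and Tac1 from -0.28 to 0.053 without Sham replicate 39. Without the 7 libraries (32 samples left), relations called by Pearson's r fell from 4 to 0 with the striatal list. They fell from 4 to 2 with the first principal component, and those among pairs of members went from 16 to 19. By Spearman's rho Pdyn and Adcyap1 passed with the striatal list in the 32 (adjusted permutation p = 0.044 for each). Genes called by edgeR and DESeq2 numbered 27 and 52 for 0.5 h against 24 h, 164 and 523 for 5xCHI against 1xCHI, and 2 and 202 over 12 groups. The cause was not tested. No paired analysis was possible because each sample has its own number, so the groups share none.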
